A study of Homo sapiens with 4 samples.

Results

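Proteins and RNAs cross the nuclear pore bound to karyopherins, a family of transport receptors that load and release cargo according to the nucleotide state of the small GTPase Ran. Importins take up cargo in the cytoplasm and let it go in the nucleus when they bind Ran-GTP, whereas exportins need Ran-GTP to hold their cargo and drop it in the cytoplasm when GTP is hydrolysed. The gradient is kept by RCC1, the chromatin-bound exchange factor that makes Ran-GTP, and by RANGAP1, the cytoplasmic GTPase-activating protein, and the same system guides spindle assembly once the nuclear envelope has broken down. The genes described here are 30 karyopherin and Ran cycle genes, chosen by name for that function, with earlier results of these data known. All 30 were found by their exact symbol among the 58051 gene identifiers of the series, and all 30 passed the filter on low counts, IPO4 only through the siLacZ libraries, where it is higher.

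The cells were MCF10A, a non-tumorigenic human mammary epithelial line. One group received siRNA against LMNA, the gene for lamins A and C of the nuclear lamina, and the other received a non-targeting siRNA against the bacterial gene LacZ, and each group had 2 poly(A) RNA libraries, called siLMNA 1 and 2 and siLacZ 1 and 2. In every library the siRNA dose was 50 nM and the cells were taken at 48 h; whether the siRNA was a pool, and whether the libraries of a group were separate cultures, is not given in the sources used here. Each p-value therefore rests on the spread of these 4 libraries, which may be technical. Libraries held 42835396 to 46219896 counts. LMNA itself was at 480 and 524 CPM (counts scaled to a common library size with TMM factors) in siLacZ and at 61.1 and 58.1 CPM in siLMNA. Epithelial markers were abundant, with a summed level of 14412 and 14943 CPM over 9 genes in siLacZ and 19187 and 17479 CPM in siLMNA. Of these 9 genes 4 rose and 3 fell: KRT17 went from 1720 and 1670 CPM to 7200 and 6390 CPM, while KRT14 went from 4700 and 4720 CPM to 2550 and 2510 CPM and EPCAM from 89.2 and 80.2 CPM to 52.9 and 51.4 CPM. The summed level of 8 fibroblast markers was 175.2 and 178.1 CPM in siLacZ and 765.9 and 767.2 CPM in siLMNA. Of these genes 5 were tested, of which 4 rose, 0 fell and 1 did not pass, and COL3A1 had no count in any library. PDGFRA, 1 of the 4, had 2 and 1 counts in siLacZ and 22 and 10 counts in siLMNA. Only the siLMNA libraries cleared the low-count filter for PDGFRA, so that its rise is given no weight. COL1A1 went from 13 and 12.7 CPM to 130 and 122 CPM, and DCN from 160 and 163 CPM to 629 and 639 CPM. Of 5 endothelial markers 4 were tested, of which 2 rose (PECAM1 and TEK) and 0 fell. Of 4 luminal breast markers 3 were tested, of which 1 rose (ESR1) and 0 fell. TEK had 6 and 24 counts in siLacZ and 48 and 54 in siLMNA. ESR1 had 35 and 38 counts in siLacZ and 60 and 59 in siLMNA. All these marker counts stand beside 26.5% of all tested genes that rose and 27.8% that fell. Of 5 leukocyte markers CD14 alone passed the low-count filter, at 25.2 and 25.6 CPM in siLacZ and 33.7 and 27.8 CPM in siLMNA (log2 fold change 0.28, SE 0.095; edgeR adjusted p = 0.0207), and CD3E had no count in any library. The part that these markers play in the results given here was not tested.

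LMNA siRNA was followed by lower transcript levels of most of the nuclear transport genes. Of the 30 genes 20 fell, 2 rose and 8 did not pass (edgeR quasi-likelihood test, adjusted p under 0.05), against 27.8% of all 18540 tested genes that fell and 26.5% that rose (54.3% in either direction). The median log2 fold change (siLMNA over siLacZ) was -0.38 over the 30 genes and -0.01 over all tested genes. Well-measured genes pass more often, and among the genes with a mean of at least 5 CPM 39.0% fell and 30.6% rose; of the 29 transport genes above that level 19 fell and 2 rose, which is 65.5% and 6.90%. The CPM values of the siLMNA and siLacZ libraries did not overlap for 27 of the 30 genes, compared with 76.0% of all tested genes. Of the falls 3 were 2-fold or more (RCC1, RANBP1 and IPO4), a size of fall reached by 7.15% of all tested genes. Without IPO4, which has few counts, there were 2. CSE1L, whose log2 fold change rounds to -1.0, lay just short of this cut before rounding. Against a minimum change of 1.5-fold 5 genes passed, namely RCC1, RANBP1, CSE1L, KPNA2 and RAN, and 9.36% of all tested genes fell by that test. Without siLacZ 2 the number of transport genes that fell was 12, and the number over all genes went from 5157 to 3121; without siLacZ 1, and without siLacZ 2, edgeR called 0 transport genes higher, with 1 higher at an unadjusted p under 0.05 each time.

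**Figure D1:**
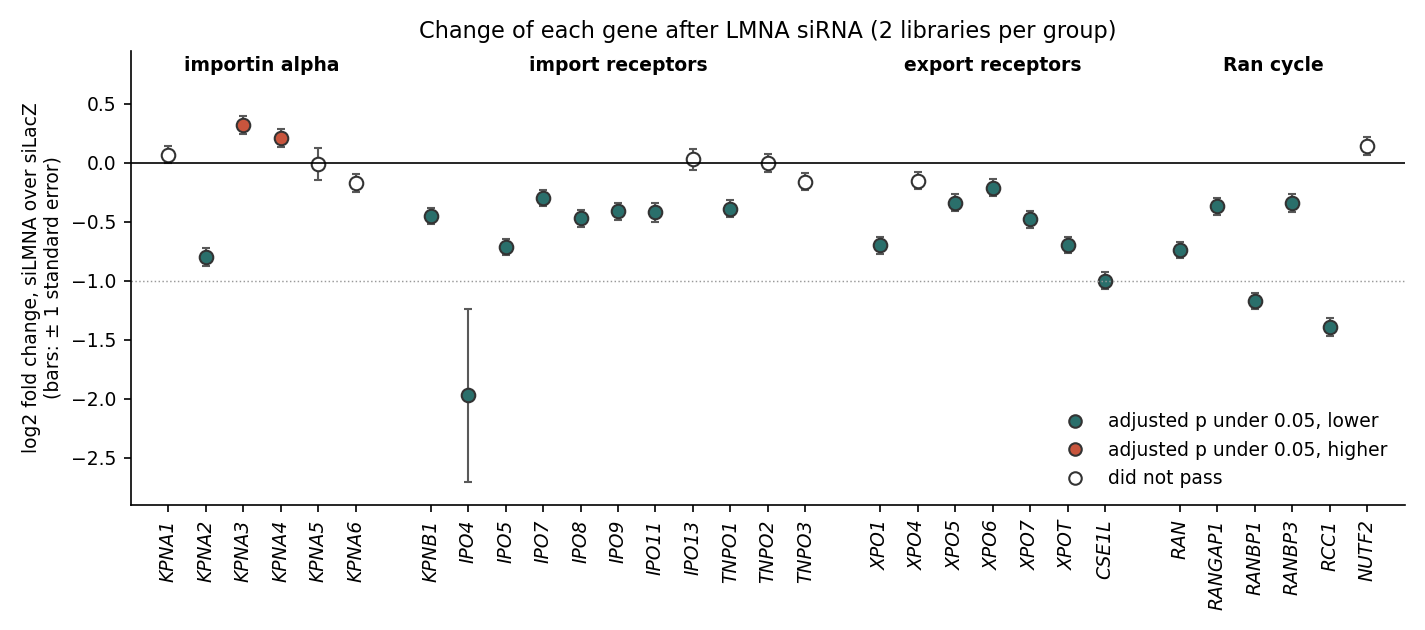
Log2 fold change (siLMNA over siLacZ) of the 30 genes by role, with bars of 1 standard error from the edgeR fit on 2 libraries per group; filled points passed at an adjusted p under 0.05 and the dotted line marks a 2-fold fall. RCC1 (-1.39) and RANBP1 (-1.17) lie lowest among the well-measured genes, KPNA3 (0.32) and KPNA4 (0.21) lie above 0, and IPO4 has by far the widest bar.

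Promoter sequences of the genes with the largest changes are shown here as a description, and a part of promoter control in these changes was not tested. The 250 bases before the RefSeq transcription start were taken from RefSeq (GRCh38.p14, the files' hg38 build), in which 25 of the 30 genes matched by symbol. GENCODE 29, the source of the gene coordinates given with the genes, places the outermost start of each shown gene further upstream, so that 66 (CSE1L), 100 (RCC1), 148 (IPO4), 216 (KPNA2) and 239 (KPNA3) of the 250 bases lie within the GENCODE gene. By the rule used, the genes were those with the largest falls and rises; RANBP1 and KPNA4 are named only, and KPNA2 was added after its values were seen, as the importin alpha gene with the largest fall. Capitals mark matches, on either strand, to 4 motifs: E2F (TTCCCGC or TTGGCGC), the cell cycle homology region CHR (TTTGAA or TTCGAA), the E-box CACGTG bound by MYC and its relatives, and the CCAAT box (CCAAT). IPO4 is at chr14:24188817-24189066 on the minus strand, RCC1 at chr1:28505793-28506042 on the plus strand, CSE1L at chr20:49046062-49046311 on the plus strand, KPNA2 at chr17:68035485-68035734 on the plus strand and KPNA3 at chr13:49792683-49792932 on the minus strand.
IPO4: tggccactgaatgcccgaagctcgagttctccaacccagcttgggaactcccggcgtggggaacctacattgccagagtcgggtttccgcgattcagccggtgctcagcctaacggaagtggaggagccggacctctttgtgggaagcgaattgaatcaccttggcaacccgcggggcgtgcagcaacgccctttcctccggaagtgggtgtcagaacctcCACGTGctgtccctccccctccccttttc
RCC1: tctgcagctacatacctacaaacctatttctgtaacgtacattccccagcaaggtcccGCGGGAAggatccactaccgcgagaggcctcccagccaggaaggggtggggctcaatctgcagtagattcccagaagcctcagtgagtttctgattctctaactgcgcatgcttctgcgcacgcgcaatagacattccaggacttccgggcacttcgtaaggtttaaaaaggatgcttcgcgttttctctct
CSE1L: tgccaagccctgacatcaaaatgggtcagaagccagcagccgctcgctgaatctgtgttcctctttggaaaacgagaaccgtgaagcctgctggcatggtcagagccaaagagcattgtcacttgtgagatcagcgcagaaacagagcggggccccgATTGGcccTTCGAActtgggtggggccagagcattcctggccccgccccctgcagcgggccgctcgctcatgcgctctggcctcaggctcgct
KPNA2: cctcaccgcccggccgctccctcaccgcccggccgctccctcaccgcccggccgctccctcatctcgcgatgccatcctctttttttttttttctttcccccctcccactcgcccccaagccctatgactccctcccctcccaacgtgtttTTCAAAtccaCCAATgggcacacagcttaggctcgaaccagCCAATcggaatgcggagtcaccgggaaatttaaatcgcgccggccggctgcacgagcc
KPNA3: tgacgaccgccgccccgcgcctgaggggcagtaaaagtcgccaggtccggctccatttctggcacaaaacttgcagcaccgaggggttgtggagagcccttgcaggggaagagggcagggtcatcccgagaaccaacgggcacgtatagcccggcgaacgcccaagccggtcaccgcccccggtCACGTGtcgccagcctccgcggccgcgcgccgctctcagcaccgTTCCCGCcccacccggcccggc

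In these windows CSE1L and KPNA2, which both fell, each hold a CHR match a few bases from a CCAAT box, RCC1 holds an E2F match, and KPNA3, which rose, holds an E2F match and an E-box. A CHR match was present in 4 of the 25 windows (KPNA2, IPO7, IPO11 and CSE1L), or 16%, against 14.6% of 27305 human promoter windows of the same length; all 4 genes are among the 17 that fell and have a window. E2F matches were in 7 of 25 windows (28.0%, against 7.95% of all windows), spread over 5 of 17 genes that fell, 1 of 1 that rose and 1 of 7 that did not pass. E-boxes were in 5 of 25 (20.0%, against 6.49%), in 3 of 17 genes that fell, 1 of 1 that rose and 1 of 7 that did not pass. CCAAT boxes were in 10 of 25 (40.0%, against 33.0%), in 7 of 17, 0 of 1 and 3 of 7. IPO4, whose fall is given no weight, is among the 17 genes that fell and among the 3 of them with an E-box. The 27305 windows were not limited to tested genes. These are descriptions of letters in a window, not of factor binding.

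The Ran cycle genes included the largest well-measured falls. RCC1 (ENSG00000180198; plus strand of hg38 chromosome 1, from 28505943 to 28539300), the exchange factor for Ran, was at 116 and 129 CPM in siLacZ 1 and 2 and at 48.2 and 45.5 CPM in siLMNA 1 and 2. The siLMNA libraries were both well below the controls, and RCC1 fell with a log2 fold change of -1.39 (SE 0.077, n = 2 per group; edgeR adjusted p = 1.06e-10). RCC1 shares 6.22% of its exon bases with SNHG3 on the same strand, a non-coding host transcript whose own counts were 2905 and 2729 in siLacZ and 1248 and 1248 in siLMNA, so a small part of the RCC1 reads could be divided between these genes. RANBP1 (ENSG00000099901; plus strand of hg38 chromosome 22, from 20115938 to 20127357), which helps strip Ran-GTP from export complexes and speeds its hydrolysis, was at 195 and 189 CPM in siLacZ and at 84.4 and 86.3 CPM in siLMNA. It fell to 44.4% of the control level (log2 fold change -1.17, SE 0.069; edgeR adjusted p = 2.37e-10). Of the RANBP1 exon bases 8.50% lie opposite TRMT2A, which had 1538 and 1550 counts in siLacZ and 859 and 917 in siLMNA; the use of strand in counting is not given in the sources used here.

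RAN (ENSG00000132341; plus strand of hg38 chromosome 12, from 130871879 to 130877678), the GTPase itself, was at 605 and 606 CPM in siLacZ and at 365 and 360 CPM in siLMNA. Replicates differed by little and the groups were far apart, with a log2 fold change of -0.74 (SE 0.065; edgeR adjusted p = 3.30e-08). RANGAP1, which acts at the other end of the gradient, fell from 243 and 249 CPM to 198 and 182 CPM (log2 fold change -0.37, SE 0.070; edgeR adjusted p = 0.000200). RANBP3, a cofactor that loads Ran-GTP and cargo onto XPO1, had a log2 fold change of -0.34 (SE 0.073). NUTF2 (NTF2), which carries Ran-GDP back into the nucleus, did not pass; it was at 100 and 99.9 CPM in siLacZ and at 118 and 104 CPM in siLMNA (log2 fold change 0.14, SE 0.076; edgeR adjusted p = 0.121). NUTF2 passed, toward higher, with upper-quartile scaling (edgeR adjusted p = 0.0219) and without siLMNA 2 (log2 fold change 0.23). Of the NUTF2 exon bases 2.82% lie opposite CENPT, which had 661 and 575 counts in siLacZ and 1030 and 1022 in siLMNA. The falls of RANGAP1 (adjusted p = 0.0517) and RANBP3 (adjusted p = 0.0513) were lost without siLacZ 2.

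The log2 ratio of RCC1 to RANGAP1, per exon length, was -0.60 and -0.49 in siLacZ and -1.58 and -1.54 in siLMNA, a difference of -1.01. That of NUTF2 to RAN was -2.28 and -2.29 in siLacZ and -1.33 and -1.49 in siLMNA, a difference of 0.88. The libraries of the groups did not overlap in either ratio. These and the other ratios given here were chosen after the values were seen and are given as descriptions; with 2 libraries against 2 an exact two-sided permutation test cannot go below a p of 0.333.

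Export receptors were lower nearly throughout, with 6 of 7 genes fallen (85.7%, against 27.8% of all tested genes and 39.0% of those with at least 5 CPM) and 0 risen (median log2 fold change -0.48); edgeR at an unadjusted p under 0.05 and DESeq2 gave 0 rises as well. CSE1L (ENSG00000124207; plus strand of hg38 chromosome 20, from 49046246 to 49096960), the exportin that returns importin alpha to the cytoplasm, was at 308 and 318 CPM in siLacZ and at 149 and 164 CPM in siLMNA. Its level was thus 50.0% of the control (log2 fold change -1.0, SE 0.071; edgeR adjusted p = 2.57e-09). XPOT, the exportin for tRNA, went from 254 and 263 CPM to 155 and 162 CPM (log2 fold change -0.70, SE 0.068; edgeR adjusted p = 1.18e-07). XPO1 (CRM1), which exports proteins with leucine-rich export signals, went from 335 and 327 CPM to 197 and 212 CPM (log2 fold change -0.70, SE 0.069; edgeR adjusted p = 1.47e-07). In each of these genes both siLMNA libraries were below both controls by several times the distance between replicates. XPO7, a receptor of broad cargo range that also imports, showed a log2 fold change of -0.48 (SE 0.072), and XPO5, which exports microRNA precursors, one of -0.34 (SE 0.072). XPO6, the exportin of actin bound to profilin, fell least, by 0.21 (SE 0.074) on the log2 scale, and did not pass with RLE factors (adjusted p = 0.0559), with upper-quartile factors (adjusted p = 0.104), without siLMNA 2 (adjusted p = 0.0645) or without siLacZ 2 (adjusted p = 0.240). The fall of XPO5 was lost without siLacZ 2 (log2 fold change -0.25). Of the XPO5 exon bases 4.08% lie opposite POLR1C, which had 1497 and 1592 counts in siLacZ and 949 and 858 in siLMNA. XPO4, whose cargoes include the translation factor eIF5A, was at 80.2 and 85.9 CPM in siLacZ and at 73 and 76.6 CPM after LMNA siRNA, and missed the threshold (edgeR adjusted p = 0.0932).

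Among the 11 import receptors of the importin beta type 8 fell, IPO4 with its few counts among them, 0 rose and 3 did not pass. The share that fell was 72.7%, against 27.8% of all tested genes and 39.0% of those with at least 5 CPM. Of all tested genes 26.5% rose. The median log2 fold change of the 11 receptors was -0.41. By edgeR at an unadjusted p under 0.05, and by DESeq2, 0 were higher. KPNB1 (importin beta, the partner of importin alpha; ENSG00000108424; plus strand of hg38 chromosome 17, from 47649476 to 47685505) was at 568 and 620 CPM in siLacZ and at 439 and 433 CPM in siLMNA (log2 fold change -0.45, SE 0.068; edgeR adjusted p = 2.48e-05). IPO5, an importer of ribosomal proteins and histones, fell from 418 and 441 CPM to 257 and 268 CPM (log2 fold change -0.71, SE 0.068; edgeR adjusted p = 9.62e-08). Of the other falls, IPO8 had a log2 fold change of -0.47 (SE 0.072), IPO11 of -0.42 (SE 0.082), IPO9, an importer of core histones, of -0.41 (SE 0.071), TNPO1, which imports hnRNP A1, of -0.39 (SE 0.072), and IPO7 of -0.30 (SE 0.070). Of these, IPO7 lost its call without siLacZ 1 (adjusted p = 0.0782) or siLacZ 2 (adjusted p = 0.110), and IPO11 (adjusted p = 0.0502) and TNPO1 (adjusted p = 0.0817) lost theirs without siLacZ 2. IPO11 shares 17.0% of its exon bases with LRRC70, which had at most 1 count in a library, and 5.68% with KIF2A, which had 2632 and 2970 counts in siLacZ and 1932 and 2189 in siLMNA.

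The transportin paralogs TNPO1 and TNPO2 are given side by side, with no test of the difference between their changes. TNPO1 went from 327 and 333 CPM to 237 and 267 CPM, whereas TNPO2, its nearest paralog, was at 108 and 118 CPM in siLacZ and at 118 and 110 CPM in siLMNA, with overlapping groups (log2 fold change 0.00, SE 0.074; edgeR adjusted p = 0.973). The log2 ratio of TNPO1 to TNPO2, per exon length, was 0.82 and 0.72 in siLacZ and 0.23 and 0.52 in siLMNA. TNPO3, which imports SR splicing factors, had a log2 fold change of -0.16 (SE 0.072; edgeR adjusted p = 0.0678). IPO13, which works in both directions, was at 48.4 and 55.2 CPM in siLacZ and at 56.6 and 49.2 CPM in siLMNA, again overlapping.

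IPO4 had the largest fitted fall of all 30 genes but the weakest data. It was listed at 19 and 11 counts in siLacZ and at 5 and 2 counts in siLMNA (log2 fold change -1.97, SE 0.735; edgeR adjusted p = 0.0317). Only the siLacZ libraries cleared the low-count filter for IPO4, so that it could hardly enter the test without being higher there, and its fall is given no weight; without it 19 of 29 transport genes and 7 of 10 import receptors fell. The call was lost with DESeq2 (adjusted p = 0.215), with no low-count filter (adjusted p = 0.0859) and without any of the 4 libraries in turn (adjusted p from 0.0843 to 0.301). In GENCODE 29 IPO4 (ENSG00000196497; minus strand of hg38 chromosome 14, from 24180219 to 24188964) shares 69.3% of its exon bases with ENSG00000259522, an overlapping protein-coding gene on the same strand, which was itself listed at 1 count in siLacZ 1 and at 0 in the other libraries. How reads in shared exons were counted is not given in the sources used here, and the IPO4 value is uncertain as a measure of IPO4 mRNA.

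The importin alpha genes, whose products read the classical nuclear localization signal and hand the cargo to KPNB1, include both rises found among the 30 genes. Of these 6 genes 1 was lower (16.7%), 2 were higher (33.3%) and the other 3 missed the threshold, shares near those of all tested genes (27.8% lower and 26.5% higher). KPNA2 (ENSG00000182481; plus strand of hg38 chromosome 17, from 68035519 to 68046842) was at 225 and 250 CPM in siLacZ and at 132 and 140 CPM in siLMNA (log2 fold change -0.80, SE 0.074; edgeR adjusted p = 5.82e-08). KPNA3 (ENSG00000102753; minus strand of hg38 chromosome 13, from 49699307 to 49792921) was higher, at 107 and 114 CPM in siLacZ and at 132 and 145 CPM in siLMNA (log2 fold change 0.32, SE 0.074; edgeR adjusted p = 0.00121). KPNA4 (ENSG00000186432; minus strand of hg38 chromosome 3, from 160494995 to 160565588), the closest paralog of KPNA3, was at 125 and 126 CPM in siLacZ and at 137 and 153 CPM in siLMNA (log2 fold change 0.21, SE 0.073; edgeR adjusted p = 0.0239). The groups did not overlap for any of these genes, but that holds for 76.0% of all tested genes. It also holds for KPNA1 and KPNA6, which did not pass. The rises were small. KPNA3 did not pass without siLacZ 1 (log2 fold change 0.27) or siLacZ 2 (0.39). KPNA4 did not pass with no low-count filter (edgeR adjusted p = 0.0650). Nor did KPNA4 pass without siLacZ 1 (log2 fold change 0.19), siLacZ 2 (0.23) or siLMNA 2 (0.12). KPNA1 had a log2 fold change of 0.07 (SE 0.072), KPNA5 of -0.01 (SE 0.138) and KPNA6 of -0.17 (SE 0.073; edgeR adjusted p = 0.0637). KPNA6 passed, toward lower, without siLacZ 1 (adjusted p = 0.0420).

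Per exon length, KPNA2 made up 52.0% and 53.2% of the summed importin alpha transcripts in siLacZ and 36.9% and 36.6% in siLMNA. The share of KPNA3 was 17.4% and 17.0% in siLacZ and 25.8% and 26.8% in siLMNA, and that of KPNA4 was 9.67% and 8.98% against 12.8% and 13.4%. Shares add up to the whole, so that the fall of KPNA2 alone raises the share of every other gene. KPNA2 remained the most abundant importin alpha transcript in each library, and KPNA5 made up 0.472% to 0.695%. The summed importin alpha level was 589.7 and 638.2 TPM (a level per transcript length, scaled to a common total, computed here from the counts and GENCODE 29 exon lengths) in siLacZ and 492.1 and 537.9 TPM in siLMNA.

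**Figure D2:**
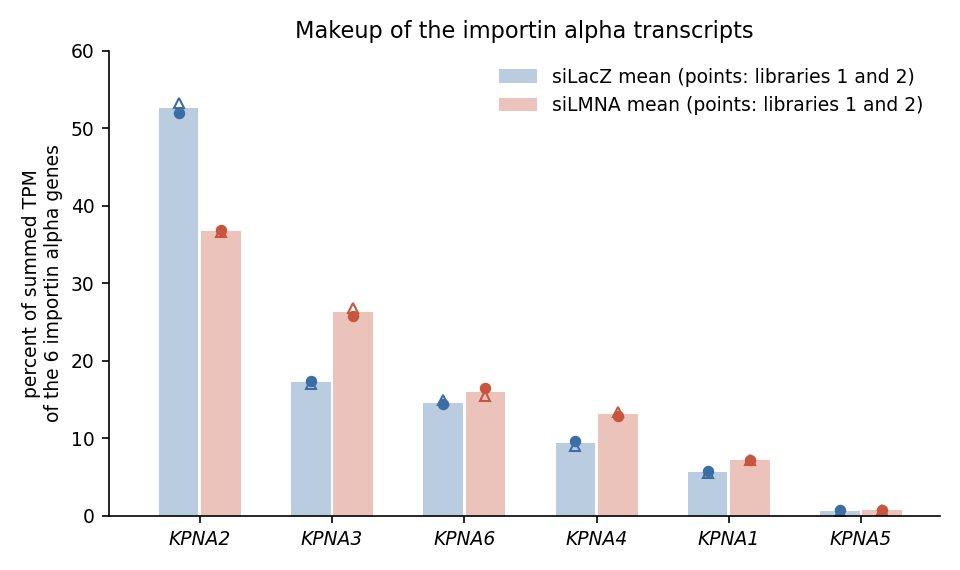
Share of each importin alpha gene in the summed TPM of the 6 genes, with bars at the group mean and a point for each of the 2 libraries per group. KPNA2 goes from 52.6% to 36.8% on average and KPNA3 from 17.2% to 26.3%.

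KPNA7, an importin alpha best known from oocytes and early embryos and not among the 30 genes, was listed at 22 and 24 counts in siLacZ and at 153 and 136 counts in siLMNA. It rose 6.71-fold, from 0.492 and 0.508 CPM to 3.58 and 3.16 CPM (log2 fold change 2.75, SE 0.281; edgeR adjusted p = 2.35e-07). In the same siLMNA libraries KPNA2 was at 132 and 140 CPM.

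Levels per length ordered the genes over a wide range in the control cells. RAN was highest at 537 ± 0.373 TPM (SD, n = 2), followed by CSE1L at 352 ± 7.47, KPNB1 at 331 ± 19.7 and KPNA2 at 323 ± 23.3 TPM, of which the last 2 lay within each other's spread. In siLMNA the order was RAN at 329 ± 2.86 TPM, KPNB1 at 248 ± 2.57, IPO7 at 212 ± 20.3, KPNA2 at 189 ± 10.8 and CSE1L at 180 ± 15.6 TPM, with the last 3 close to each other relative to their spread. RCC1 went from rank 10 to rank 21 of the 30 genes and RANBP1 from rank 8 to rank 16, while KPNA3 went from rank 16 to rank 7. Summed over all 30 genes the level was 3940 and 4110 TPM in siLacZ and 2842 and 2974 TPM in siLMNA, which is 72.2% of the control on average. The Ran cycle genes together came to 64.7% of the control and the export receptors to 64.9%, with the import receptors at 79.0% and the importin alpha genes at 83.9%. Reads of processed pseudogenes, which exist for several of these genes, were few: rows named as pseudogenes of a member held at most 1.55% of that member's counts in a library. That share was for IPO5, whose pseudogene row held 0.327% and 0.379% of its count in siLacZ and 1.39% and 1.55% in siLMNA; for the other members it was at most 0.399%.

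**Figure D3:**
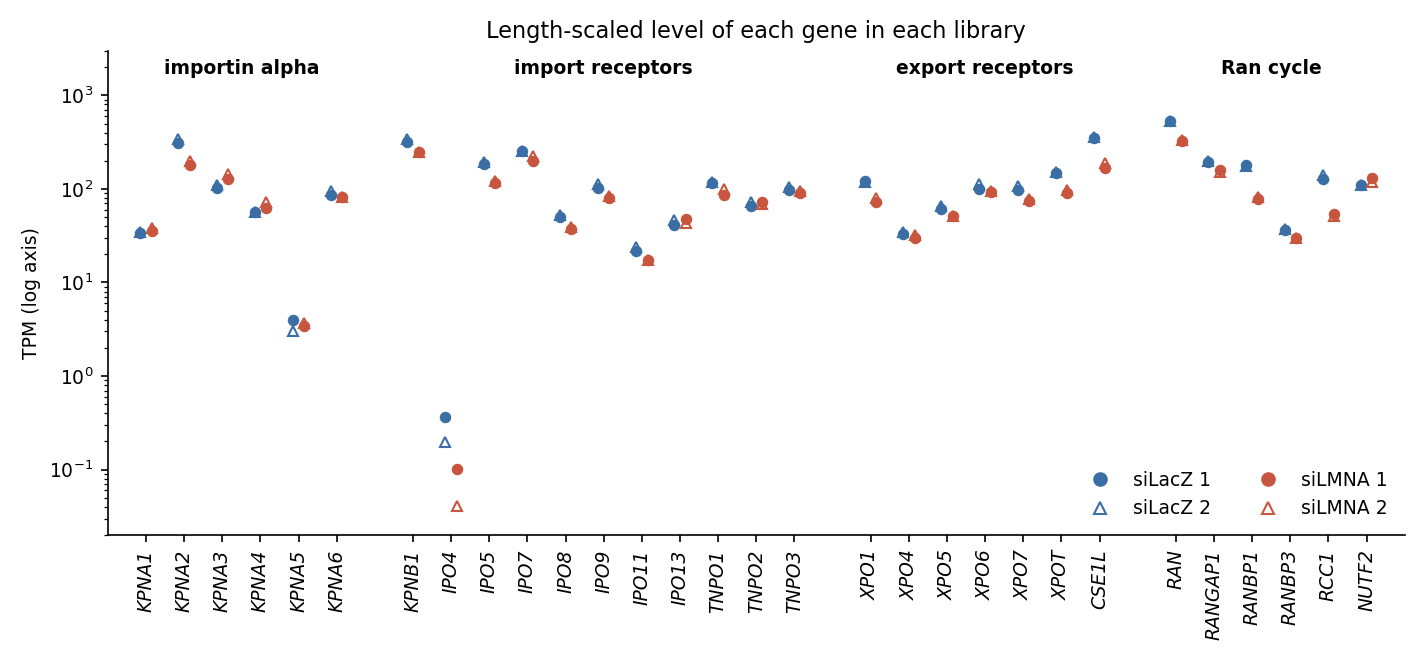
TPM of each gene in each library on a log axis, by role, with siLacZ in blue and siLMNA in red and with separate symbols for libraries 1 and 2. RAN is highest in every library, IPO4 lies below 1 TPM in all 4, and the siLMNA points lie below the siLacZ points for most receptors.

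Other genes of the transport system, from lists chosen with earlier results of these data known, also fell more often than they rose. Of 18 transport cofactors 17 were tested; 9 fell (52.9%), 3 rose (17.6%) and 5 did not pass (median log2 fold change -0.40), against 27.8% and 26.5% of all tested genes, and DESeq2 called 1 of them higher. NXT1, the partner of the mRNA export receptor NXF1, had the largest fall, from 18.4 and 19.8 CPM to 6.79 and 7.17 CPM (log2 fold change -1.45, SE 0.112; edgeR adjusted p = 6.48e-09). ALYREF, the mRNA export adaptor, showed a log2 fold change of -0.84 (SE 0.078), and NMD3, the adaptor that links the large ribosomal subunit to XPO1, one of -0.57 (SE 0.076). Of 9 nucleoporins of the channel and its cytoplasmic and nuclear sides 7 fell (77.8%), 0 rose and 2 did not pass. Of all tested genes 27.8% fell, and of those with at least 5 CPM 39.0%. By edgeR at an unadjusted p under 0.05, and by DESeq2, 0 of the 9 rose as well. The median log2 fold change was -0.41, with the largest changes for NUP88 (-0.71, SE 0.074) and NUP98 (-0.70, SE 0.076). NUP153 and NUP62 lost their calls without siLacZ 2. RANBP2, also a nucleoporin but listed with the cofactors, did not pass (log2 fold change 0.14, SE 0.085). It passed, toward higher, with upper-quartile factors and without siLMNA 1.

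Spindle factors whose activity is controlled by Ran-GTP and importins were also lower. The list has 7 genes, of which 6 were lower (85.7%), 0 higher and 1 did not pass. Of all tested genes 27.8% fell and 26.5% rose, and of those with at least 5 CPM 39.0% fell. Among the 6, RAE1 fell least (log2 fold change -0.26, SE 0.081) and kept its call in 8 of 11 alternatives. The median log2 fold change of the list was -1.58, beside -0.01 over all tested genes. At an unadjusted p under 0.05 edgeR gave 0 rises, as did DESeq2, which called 5 of these genes lower. HMMR went from 51.9 and 50.8 CPM to 7.47 and 8.68 CPM (log2 fold change -2.67, SE 0.096), and TPX2, a cargo of importin alpha in interphase, went from 149 and 170 CPM to 43.9 and 48.8 CPM (log2 fold change -1.78, SE 0.084). NUMA1 did not pass (log2 fold change 0.09, SE 0.073). DLGAP5 showed a log2 fold change of -2.24 (SE 0.094) and KIFC1 of -1.58 (SE 0.105).

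Proliferation markers, also listed with earlier results of these data known, were lower in siLMNA. All 13 of 13 markers fell, against 27.8% of all tested genes and 39.0% of those with at least 5 CPM. Their median log2 fold change was -1.64, with a range from -2.12 (MKI67) to -0.93 (E2F1). The summed level of the markers was 1413 and 1605 CPM in siLacZ and 426.9 and 486.3 CPM in siLMNA. In bulk RNA fewer cycling cells and less RNA of these genes per cell cannot be told apart. The part of the proliferation markers in the change of the transport genes was not tested. Among the 30 genes the log2 fold change of RCC1 (-1.39) lies within the range of the marker list, as do those of RANBP1 and CSE1L, and that of IPO4 does too; the other 26 lie above it.

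**Figure D4:**
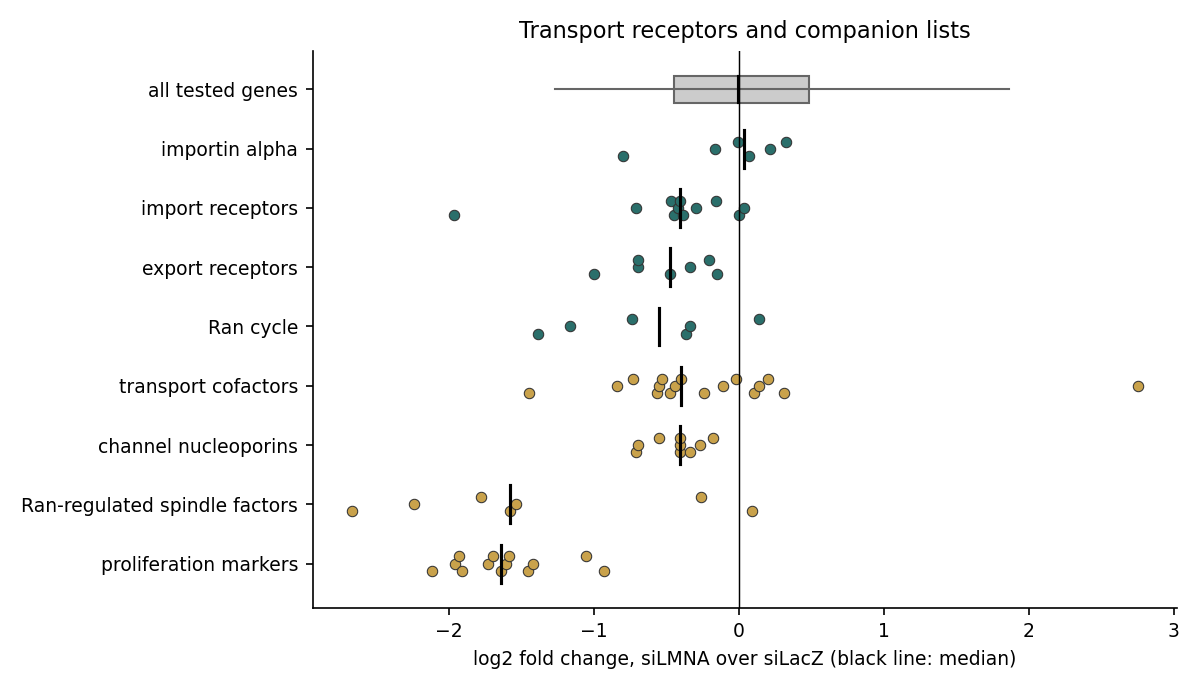
Log2 fold changes (siLMNA over siLacZ) of the tested genes of each role and of 4 companion lists, 1 point per gene with the median as a black line; the box for all tested genes spans the middle 50% (-0.45 to 0.48) and its line the 5th to 95th percentile (-1.27 to 1.86). Import receptors, export receptors and Ran cycle genes centre between -0.41 and -0.55, importin alpha at 0.03 and the proliferation markers at -1.64.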

How the data were processed

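Poly(A) RNA was sequenced in 4 libraries. Coordinates are hg38, as named by the submitters' processing notes; the aligner, counter, annotation and strand setting were not given in the sources used here. For each same-numbered siLacZ and siLMNA pair the authors deposited a table. Per the file headers each holds raw read counts per gene, normalized counts (a signal, equal to the count times a library factor) and the authors' log2 fold change, the last 2 of which were used for checks only. Counts did not match normalized values (relative tolerance 1e-06) in 6 genes (CCNB1, CDH1, CLDN1, OCLN, TWIST1 and ZEB1), which were left out; none is a transport gene. Of the deposited columns 3 have no name and were not used.

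The counts of all 4 libraries were tested with edgeR 4.0.16 (R 4.3.3): quasi-likelihood test, TMM factors, filterByExpr, group as the only term, Benjamini-Hochberg adjustment over 18540 genes at 0.05. A standard error is the log2 fold change divided by the square root of F. The step was tested on simulated data. TPM used exon lengths from GENCODE 29, which matched 57447 of 58051 identifiers. Within groups, libraries were not duplicates (chi-square over its degrees of freedom was 8.42 for siLacZ and 6.42 for siLMNA) and each counted as a sample. With 42835396 to 46219896 counts per library, 3 counts, the limit that a count of 0 allows, are 0.0634 to 0.0702 CPM on the TMM scale, for counting error only.

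Members and lists were chosen with earlier results of these data known. All 30 members are reported, with values per library for the 8 largest falls, the rises, and RAN, KPNB1 and XPO1; up to 4 genes per companion list are named by size, and others were named after their values were seen. Alternatives were RLE and upper-quartile factors, DESeq2 1.42.0, other low-count filters, a replicate block, a 1.5-fold null, the contradicting rows kept, and leaving out each library.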

Additional observations from a re-analysis of the deposited data

How the results depend on the processing

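Of the 22 transport genes that passed, 12 (KPNA2, KPNB1, IPO5, IPO8, IPO9, XPO1, XPO7, XPOT, CSE1L, RAN, RANBP1 and RCC1, all lower) kept their call under each of 11 alternatives, that is all except the 1.5-fold null. The number of transport genes that fell was 18 to 20 under those alternatives, except without siLacZ 2. Leaving out 1 library at a time gave 12 to 19 falls and 0 to 2 rises among the transport genes, 3121 to 4696 falls and 3182 to 4283 rises over all genes, and medians of -0.41 to -0.32 for the transport genes; the fit then has fewer samples, and the lone library of a group is assumed to vary like the other group. Against a 1.5-fold null 5 transport genes fell and 0 rose (against no change, 2 rose by DESeq2 and 2 by edgeR at an unadjusted p under 0.05), with 1735 falls and 2111 rises over all genes. With no low-count filter 1 transport gene rose. Upper-quartile factors moved the median of the transport genes to -0.31, beside a shift of 0.07 in the median of all genes. Genes that did not pass changed sign in some runs: KPNA5 was at 0.01 with a filter of 1 CPM in 2 libraries, at 0.01 with RLE factors, at 0.06 with upper-quartile factors and from -0.18 to 0.18 when a library was left out, TNPO2 was at -0.01 with no low-count filter and from -0.07 to 0.09 when a library was left out, and IPO13 was then at -0.08 to 0.15. With the replicate number as a block 20 transport genes fell and 2 rose, and no call on them changed; deviations of same-numbered libraries did not go together (correlation -0.034), so the numbers are not taken to pair the samples. IPO4 gave no value with the filter of 1 CPM in 2 libraries. Depth limits IPO4, with at most 19 counts in a library, and to a lesser degree KPNA5.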

Other observations

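NCBP1 and NCBP2, the cap-binding proteins that mark RNA for export, were lower by log2 fold change, at -0.53 (SE 0.074) for NCBP1 and -0.48 (SE 0.074) for NCBP2, and SNUPN, the adaptor that imports spliceosomal snRNPs, had one of -0.55 (SE 0.127), which did not pass without siLacZ 2 (edgeR adjusted p = 0.0976). RANBP6, a paralog of IPO5, was at 44.4 and 46 CPM in siLacZ and at 50.9 and 53.2 CPM in siLMNA (log2 fold change 0.20, SE 0.075; edgeR adjusted p = 0.0284), while IPO5 fell. RANBP17, a paralog of XPO7, was at 8.30 and 8.53 CPM in siLacZ and at 9.60 and 11.3 CPM in siLMNA (log2 fold change 0.31, SE 0.126; edgeR adjusted p = 0.0453), while XPO7 fell. Both rises held in 6 of 11 alternatives and were lost in the others, DESeq2 among them. These genes were named after their values were seen.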
